A study of Mus musculus with 4 samples.

Results

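The transcripts of 7 genes for secreted, mostly matrix-associated proteins (Cilp, Postn, Dpt, Olfml3, Sparcl1, Clu and C1qtnf3) were followed in malignant cells sorted from mouse tumors that responded or did not respond to PD-1 blockade. They are 7 of the 53379 Ensembl genes counted, and each was found by its symbol and passed the filter on low counts. They were chosen by their counts in this comparison, among the genes with lower counts in responder cells, so their difference between the groups is given as a description, with no test. Periostin (Postn) and hevin (Sparcl1) are matricellular proteins in the textbook sense, and the others are secreted proteins of the matrix or of the fluid around cells.

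Matricellular proteins are secreted into the extracellular matrix, where they act less as scaffold than as modulators: they bind collagens, growth factors and cell surface receptors and so tune adhesion, migration and growth factor signalling. In tumors they are best known as products of activated fibroblasts, and mesenchymal tumor cells can make them too. Periostin and cartilage intermediate layer protein are also known for their links with TGF-beta, which induces both, and the second of them binds the growth factor in turn.

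The cells were MC38-GFP+, a mouse colon adenocarcinoma line tagged with green fluorescent protein, grown under the skin of C57BL/6 mice from an inoculum of 50000 cells. Mice of both groups received the same sub-optimal course of anti-PD-1 antibody, which blocks an inhibitory receptor of T cells, at 100 µg on each of days 12, 15, 18 and 22, so no untreated tumor enters the comparison. The groups were tumor cells of responder tumors (2 libraries) and of non-responder tumors (2 libraries). The measure of response and the number of mice behind each group are not in the labels, and the spread between replicates, on which p-values rest, may therefore be technical.

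Total counts were 18447041 to 21754063 per library, and levels are TMM-normalised CPM, counts scaled to the size of the library. With edgeR's quasi-likelihood test over 13792 genes, 0 genes (0%) passed a Benjamini-Hochberg adjusted p of 0.05, while 501 genes with lower values in responder cells (3.63%) and 355 with higher values (2.57%) had an unadjusted p under 0.05. DESeq2 called 62 genes, and limma-voom called 0, with 875 at an unadjusted p under 0.05. Responder libraries lay below both non-responder libraries for 17.8% of the genes tested and above both for 18.8%. The median log2 fold change of all genes tested was -0.01, and 51.1% of them were below 0.

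The stretches just upstream of Cilp, Postn and Dpt are shown because these genes had the highest levels among the 7 and shared low values in responder cells. They run 250 bases up to the RefSeq transcription start on GRCm38.p6, plus strand in each case, at chr9:65264930-65265179 for Cilp, chr3:54360857-54361106 for Postn and chr1:164796413-164796662 for Dpt. Capitals mark the letters TATAA, the core of a TATA box, on the strand of the gene.
Cilp: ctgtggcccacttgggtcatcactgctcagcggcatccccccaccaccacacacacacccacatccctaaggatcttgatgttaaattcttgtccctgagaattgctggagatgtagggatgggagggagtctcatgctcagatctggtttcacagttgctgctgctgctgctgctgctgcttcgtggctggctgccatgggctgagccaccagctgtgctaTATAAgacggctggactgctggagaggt
Postn: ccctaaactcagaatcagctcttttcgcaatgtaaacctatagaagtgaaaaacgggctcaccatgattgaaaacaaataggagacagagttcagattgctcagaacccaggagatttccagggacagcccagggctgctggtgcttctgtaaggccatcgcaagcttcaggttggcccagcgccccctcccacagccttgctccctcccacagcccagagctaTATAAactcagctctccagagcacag
Dpt: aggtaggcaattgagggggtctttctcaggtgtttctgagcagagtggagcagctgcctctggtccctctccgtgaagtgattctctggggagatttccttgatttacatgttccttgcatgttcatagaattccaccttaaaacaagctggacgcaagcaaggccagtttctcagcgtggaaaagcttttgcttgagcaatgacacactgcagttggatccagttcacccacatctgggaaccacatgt

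TATAA lay 28 to 24 bases before the start in Cilp and 26 to 22 bases before it in Postn, the usual place of a TATA box. Among 32851 RefSeq promoters of the same length, 22.8% held TATAA on either strand. The Dpt stretch held no TATAA, and the gene model used for counting starts at 164796644, inside the stretch shown. It held 6 matches to the E-box CANNTG, a motif of basic helix-loop-helix factors, where Cilp held 3 and the Postn stretch none. At least 1 E-box was found in 66.2% of all promoters. C1qtnf3 held TATAA 6 to 2 bases before its start, and Olfml3 held none. The MCAT element CATTCC, bound by TEAD factors, was found once each in Olfml3 (64 to 59 bases before the start) and C1qtnf3 (96 to 91 bases before it, on the opposite strand), against 12.6% of all promoters. Neither the AP-1 site TGANTCA (6.75% of all promoters) nor the paired SMAD box GTCTAGAC (0.167%) was found in the stretches of these 5 genes, which include a second RefSeq promoter of Postn. All motifs were searched on both strands, and no 2 of the matches shared a base. The 3 genes first shown lie on different chromosomes, and in the whole group Postn and Olfml3 alone share one, chromosome 3, at 54361109 to 54391037 and 103722222 to 103738001.

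Cilp (cartilage intermediate layer protein, ENSMUSG00000042254), a matrix glycoprotein that binds TGF-beta1, was the most abundant member by CPM. It had 88.9 and 74.4 CPM in responder replicates 1 and 2, against 532 and 288 CPM in non-responder replicates 1 and 2. These values rest on 1794 and 1421 reads in responder cells and on 11021 and 6417 reads in non-responder cells. The groups did not overlap, and non-responder replicate 1 was the high library, with 1.85 times the CPM of its replicate. Cilp was 5.02-fold lower in responder cells (log2 fold change -2.33, SE 0.31, n = 2 per group), and even the closest pair of libraries, non-responder replicate 2 and responder replicate 1, stood 3.24-fold apart.

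Postn (ENSMUSG00000027750), a fasciclin-domain protein that binds integrins and collagen, had 16.8 and 19.1 CPM in responder cells, against 127 and 57.7 CPM in non-responder cells. The responder libraries lay close together, whereas the non-responder libraries were 2.20-fold apart, the widest spread of any member within a group. The log2 fold change was -2.36 (SE 0.40), or 5.15-fold lower. Without non-responder replicate 1 it was -1.68, or 3.21-fold lower.

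Dpt (dermatopontin, ENSMUSG00000026574), which binds decorin and takes part in the assembly of collagen fibrils, had 37.3 and 29.0 CPM in responder cells, against 67.5 and 101 CPM in non-responder cells. Here non-responder replicate 2 was the higher of its group, the reverse of Cilp and Postn. Dpt had the smallest difference of the 7, 2.55-fold lower in responder cells (log2 fold change -1.35, SE 0.24), with the closest libraries of the 2 groups 1.81-fold apart.

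Sparcl1 (ENSMUSG00000029309), a relative of the collagen-binding protein SPARC with anti-adhesive activity, had 5.25 and 7.28 CPM in responder cells, against 17.3 and 19.7 CPM in non-responder cells. Both responder libraries were low and the groups were separated by a gap wider than the spread within either. It was 2.96-fold lower (log2 fold change -1.56, SE 0.26).

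Olfml3 (ENSMUSG00000027848), a secreted glycoprotein of the olfactomedin family, had 12.3 and 7.54 CPM in responder cells, against 33.9 and 33.4 CPM in non-responder cells. The non-responder libraries were nearly equal, and the responder libraries were 1.63-fold apart, the widest spread of any member within responder cells. Olfml3 was 3.39-fold lower (log2 fold change -1.76, SE 0.26).

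Clu (clusterin, ENSMUSG00000022037), an extracellular chaperone that binds misfolded proteins, had 5.50 and 7.28 CPM in responder cells, against 17.0 and 21.5 CPM in non-responder cells. Its values followed those of Sparcl1 closely: the ratio of Sparcl1 to Clu was 0.955 and 1.00 in responder cells, against 1.02 and 0.917 in non-responder cells. The log2 fold change of Clu was -1.59 (SE 0.26).

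C1qtnf3 (ENSMUSG00000058914), a secreted adipokine of the C1q and TNF-related family, was the least abundant by CPM, with 3.32 and 4.61 CPM in responder cells, against 12.4 and 17.8 CPM in non-responder cells. Its lowest value came from 67 reads, with a 95% exact Poisson interval of 2.57 to 4.22 CPM that covers counting error only. The lower of the non-responder values, from 256 reads, had an interval of 10.9 to 14.0 CPM, so counting error was small beside the gap. It was 3.81-fold lower in responder cells (log2 fold change -1.93, SE 0.31).

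**Figure D1:**
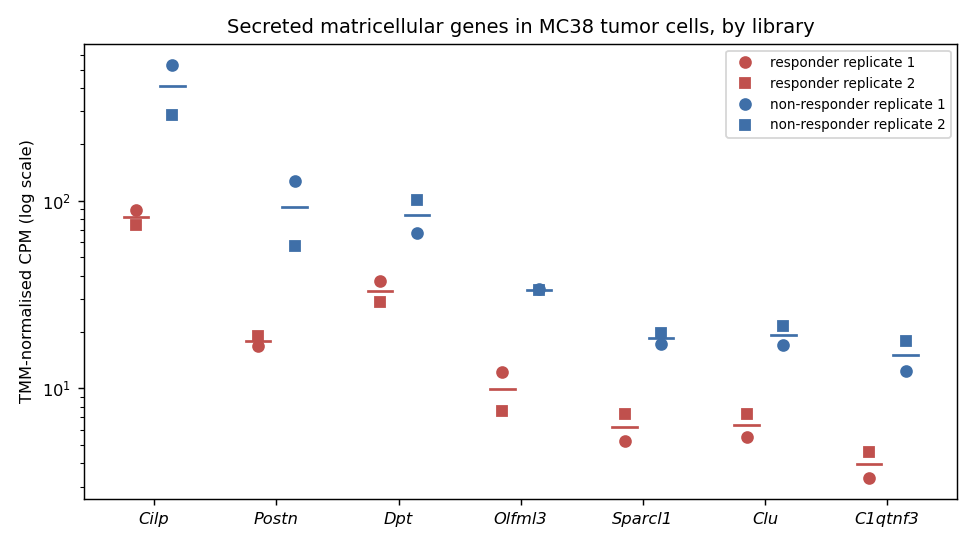
TMM-normalised CPM on a log axis for each of the 7 genes, with circles for replicate 1, squares for replicate 2 and a line at the group mean (red, responder; blue, non-responder; n = 2 each). In every gene both responder points lie below both non-responder points, from 2.34-fold (Clu) to 3.24-fold (Cilp) apart at the closest libraries except for Dpt at 1.81-fold.

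For all 7 members the responder libraries lay below both non-responder libraries, beside 17.8% of all genes tested, and the choice of members fixed this direction. Their median log2 fold change was -1.76, and the single values ran from -2.36 (Postn) to -1.35 (Dpt). In bulk RNA, fewer cells that express a gene and less of its RNA per cell cannot be told apart. Summed over the 7, the level was 169 and 149 CPM in responder cells, against 807 and 539 CPM in non-responder cells. Cilp made up 52.5% and 49.9% of that sum in responder cells, against 65.9% and 53.4% in non-responder cells. Without Cilp the sums were 80.5 and 74.7 CPM in responder cells, against 275 and 251 CPM in non-responder cells. The replicates of each group were then nearly equal in sum, but single genes still differed in opposite directions. In non-responder replicates 1 and 2, Postn had 127 and 57.7 CPM and Dpt 67.5 and 101 CPM.

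With 1 library left out the sizes moved, while the direction was fixed by the choice of members, whose groups do not overlap. The fold change of Cilp ran between 6.53-fold lower, without non-responder replicate 2, and 3.51-fold lower, without non-responder replicate 1. That of Dpt moved the opposite way with the same libraries: it was 2.04-fold lower without non-responder replicate 2 and 3.05-fold lower without non-responder replicate 1. For Olfml3, Sparcl1 and Clu the responder libraries set the extremes. Olfml3 was 4.47-fold lower without responder replicate 1 and 2.73-fold lower without responder replicate 2.

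**Figure D2:**
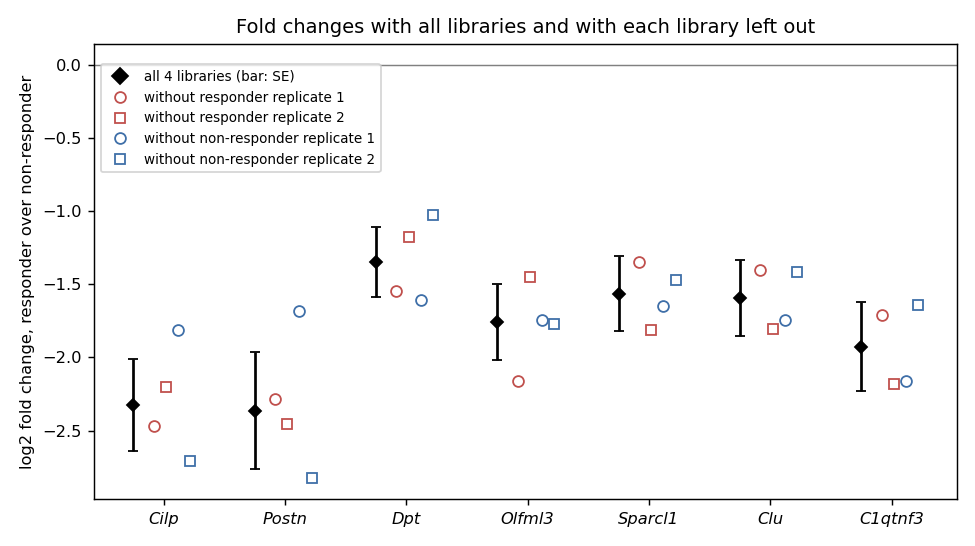
Log2 fold change of each gene, responder over non-responder, with all 4 libraries (black diamonds, bars are SE) and with 1 library left out (open symbols, coloured by the group of the library left out). The value nearest 0 is that of Dpt, -1.03 without non-responder replicate 2, and Cilp and Postn spread most with the choice of non-responder library.

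Within groups the members did not all vary together. Cilp and Olfml3 had more CPM in replicate 1 than in replicate 2 in both groups, although the non-responder values of Olfml3 differed little. Sparcl1, Clu and C1qtnf3 had more in replicate 2 in both groups. Postn and Dpt changed sides between groups. As a result the balance of the matrix genes was unlike in 1 library: the ratio of Cilp to Dpt CPM was 2.39 and 2.57 in responder cells, against 7.89 and 2.84 in non-responder replicates 1 and 2. The ratio of Postn to Dpt was 0.451 and 0.658 in responder cells, against 1.88 and 0.570 in non-responder cells, with the same library standing apart.

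Per kilobase of annotated exon, which allows levels of different genes to be compared, Cilp and Dpt stood well above the others. In responder cells Dpt had 21.6 and 16.8 CPM per kilobase and Cilp 20.9 and 17.5, and these ranges overlapped. In non-responder cells Cilp had 125 and 67.7 CPM per kilobase, above Dpt with 39.1 and 58.7. Postn came next in non-responder cells (14.6 and 6.63 CPM per kilobase), yet was within the range of the rest in responder cells (1.93 and 2.19 CPM per kilobase). Sparcl1, Postn, Clu, Olfml3 and C1qtnf3, in that order by mean in responder cells, overlapped from each neighbour to the next, between 1.22 and 2.48 CPM per kilobase. In non-responder cells the order after Postn was Sparcl1, C1qtnf3, Clu and Olfml3, again with overlapping neighbours, between 4.84 and 6.96 CPM per kilobase. Exon length here is the union over all annotated transcripts of a gene, so a gene with rare long isoforms reads low on this scale.

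Set among all genes tested, ranked by CPM per kilobase, Cilp was at percentile 81.2 and 77.9 in responder cells, against 98.3 and 96.0 in non-responder cells. Dpt was at percentile 81.8 and 77.1 in responder cells, against 91.3 and 95.2 in non-responder cells. Postn was at percentile 30.4 and 31.5 in responder cells, against 73.9 and 53.6 in non-responder cells. The other 4 members lay between percentiles 23.0 and 33.4 in responder cells, against 47.1 and 54.9 in non-responder cells. No member was at 0 in any library.

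The genes whose profile was most like the mean of Cilp, Postn and Dpt were sought among 9729 tested genes of at least 5 CPM. Likeness was the root mean square difference of centred log2 CPM over the 4 libraries. The closest was Pcdh10, a protocadherin adhesion gene, at a difference of 0.068, with 14.5 and 13.6 CPM in responder cells, against 59.1 and 42.9 CPM in non-responder cells. Next came Arhgef6, a guanine nucleotide exchange factor, at 0.169, with 12.0 and 9.32 CPM in responder cells, against 41.9 and 27.6 CPM in non-responder cells. Then followed the protocadherin Pcdhb16 (0.268), Sertad4 (0.297), the protocadherin Pcdhb20 (0.298) and Fkbp14 (0.301), a collagen-folding isomerase of the endoplasmic reticulum. In each of the 6 both responder libraries lay below both non-responder libraries, a property that the choice by likeness brings with it. By the same measure Cilp, Postn and Dpt themselves stood 0.221, 0.296 and 0.491 from their mean. Pcdh10 thus lay closer to that mean than any of the 3 genes averaged. It was picked as the closest of 9729 genes, whereas those 3 were not picked for closeness, so this order carries no weight.

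**Figure D3:**
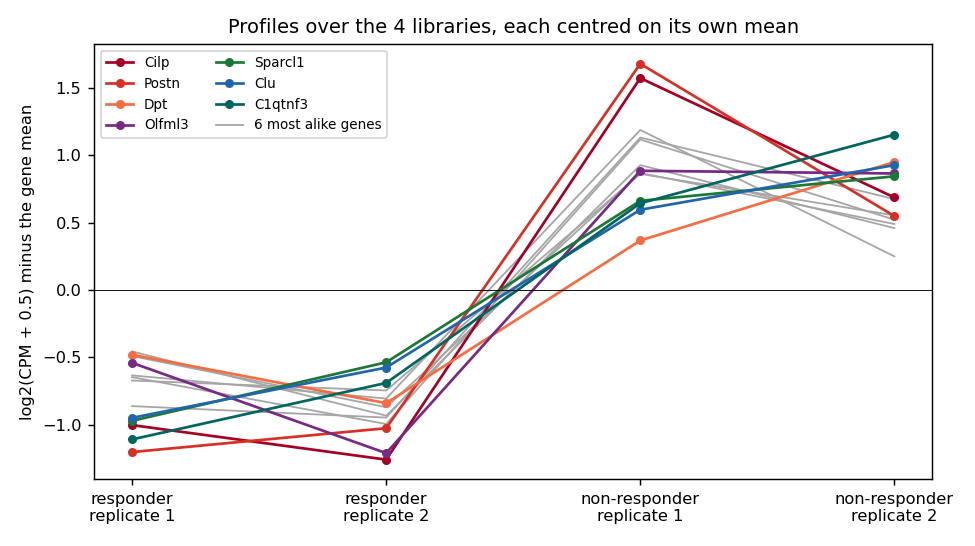
Log2(CPM + 0.5) of each gene in each library, minus that gene's mean over the 4 libraries; coloured lines are the 7 members and grey lines the 6 most alike genes, and the lines only join the points of a gene. Cilp (1.57) and Postn (1.68) peak in non-responder replicate 1, Dpt (0.95) and C1qtnf3 (1.15) in non-responder replicate 2.

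Of 30 other matricellular genes, chosen with earlier results of these data known, 21 were tested. Responder cells had lower values for 12 and higher values for 9, a median log2 fold change of -0.09, beside -0.01 over all genes tested, and 0 passed edgeR's test adjusted over all genes. Groups did not overlap in 3 with responder cells lower, beside 17.8% of all genes tested, and in 1 with responder cells higher, beside 18.8%. Ccn1, a heparin-binding protein induced by growth factors and YAP, was that one: it had 304 and 391 CPM in responder cells, against 219 and 125 CPM in non-responder cells (log2 fold change 1.02, SE 0.29, edgeR adjusted p = 0.638). Tnc (tenascin C), a binding partner of periostin, had 26.5 and 23.9 CPM in responder cells, against 61.3 and 12.7 CPM in non-responder cells, whose libraries enclosed the responder values. Fbln5, an elastic-fibre protein, had 9.96 and 4.24 CPM in responder cells, against 5.12 and 17.7 CPM in non-responder cells. Without responder replicate 1 the list had 20 of 23 tested members lower.

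**Figure D4:**
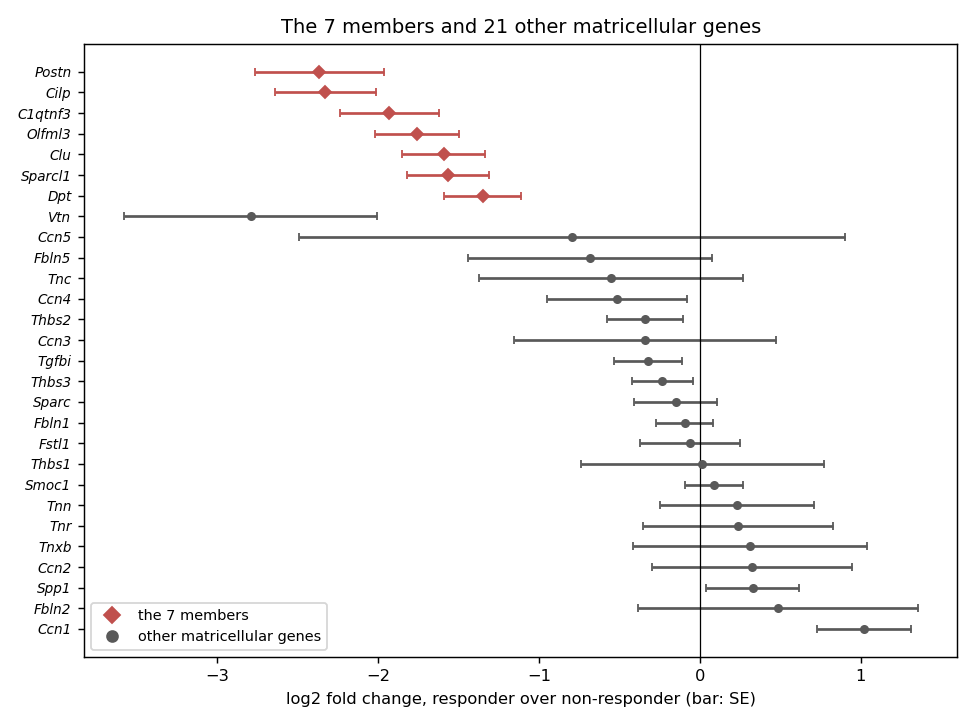
Log2 fold change, responder over non-responder, with bars of 1 SE, for the 7 members (red diamonds) and the 21 tested genes of the list of other matricellular proteins (grey circles). The members, chosen for low values, sit between -2.36 and -1.35, and the others lie on both sides of 0, with Ccn1 highest at 1.02 and Vtn, at no more than 1.93 CPM in any library, lowest at -2.79.

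The closest relatives of the members are set beside them here. Sparc, the relative of Sparcl1, was far more abundant and its groups overlapped, with 1386 and 1182 CPM in responder cells, against 1153 and 1698 CPM in non-responder cells (log2 fold change -0.15, SE 0.26). Tgfbi, a fasciclin-domain gene like Postn, had 94.8 and 125 CPM in responder cells, against 122 and 153 CPM in non-responder cells (log2 fold change -0.33, SE 0.21). Olfml2b had 38.9 and 26.4 CPM in responder cells, against 51.6 and 53.7 CPM in non-responder cells. C1qtnf6 had 59.3 and 48.5 CPM in responder cells, against 76.7 and 92.0 CPM in non-responder cells. Both had groups that did not overlap, with log2 fold changes of -0.69 (SE 0.21, edgeR adjusted p = 0.674) and -0.65 (SE 0.19, edgeR adjusted p = 0.631). Cilp2 stayed at or below 0.20 CPM in every library. Of 23 relatives with an identifier 10 were tested, and of these 9 had lower values in responder cells (median -0.24), and 0 passed. Groups did not overlap in 2 of the 10, with responder cells lower, which is near the 17.8% of all genes tested. Whether a member and its relative differ in response was not tested.

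Receptors and binding partners of the members went both ways, 8 lower and 7 higher of 15 tested, with a median of -0.02 and 0 past edgeR's test. The collagen chain gene Col1a1 had 112 and 92.8 CPM in responder cells, against 240 and 278 CPM in non-responder cells (log2 fold change -1.34, SE 0.20, edgeR adjusted p = 0.221). Fibronectin (Fn1), to which periostin and dermatopontin bind, had 11280 and 7076 CPM in responder cells, against 14970 and 13120 CPM in non-responder cells (log2 fold change -0.61, SE 0.32). Lox, the collagen cross-linking oxidase, had 285 and 35.2 CPM in responder cells, against 79.6 and 93.9 CPM in non-responder cells, so that the 2 responder libraries lay on either side of the other group. The integrin subunits Itgav and Itgb1, through which periostin acts, had log2 fold changes of -0.19 (SE 0.24) and -0.24 (SE 0.26).

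Small leucine-rich proteoglycans, the family of decorin, had lower values in responder cells for 6 of 7 tested genes (median -1.16), and 0 passed. Bgn (biglycan) had 179 and 52.5 CPM in responder cells, against 408 and 258 CPM in non-responder cells, and Lum (lumican) had 16.0 and 8.38 CPM in responder cells, against 22.0 and 58.6 CPM in non-responder cells. Aspn (asporin) had 82.9 and 38.7 CPM in responder cells, against 108 and 213 CPM in non-responder cells. Decorin itself (Dcn), the partner of dermatopontin, overlapped between groups (log2 fold change -0.40, SE 0.28).

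Among TGF-beta, IL-4 and IL-13 signalling genes and mesenchymal transcription factors, known inducers of Postn, 12 of 18 tested had lower and 6 higher values in responder cells (median -0.11), and 0 passed. The ligand gene Tgfb3 had 177 and 134 CPM in responder cells, against 509 and 258 CPM in non-responder cells (log2 fold change -1.30, SE 0.34, edgeR adjusted p = 0.631), high in the library where Cilp and Postn were high. Tgfb1 had 71.6 and 67.1 CPM in responder cells, against 57.1 and 59.2 CPM in non-responder cells. Snai2 had 11.7 and 13.4 CPM in responder cells, against 19.6 and 22.3 CPM in non-responder cells. Twist1, whose protein is known to bind the Postn promoter, had a log2 fold change of -0.12 (SE 0.17).

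Because these 7 genes are also made by fibroblasts, marker genes of other cell types were read in the same libraries. Of 20 fibroblast markers, 15 were tested, with 11 lower and 4 higher in responder cells (median -0.70), and 0 passed edgeR's test. Responder libraries lay below both non-responder libraries in 8 of the 15, beside 17.8% of all genes tested, and above both in 1, beside 18.8%. Fap, a serine protease of activated fibroblasts, had 4.66 and 5.29 CPM in responder cells, against 10.0 and 13.7 CPM in non-responder cells (log2 fold change -1.25, SE 0.28, edgeR adjusted p = 0.455). Pdgfrb, a platelet-derived growth factor receptor, had 107 and 78.3 CPM in responder cells, against 220 and 198 CPM in non-responder cells (log2 fold change -1.18, SE 0.21, edgeR adjusted p = 0.334). The 4 higher in responder cells were Fbln2 (log2 fold change 0.48, SE 0.87), Col1a2 (0.24, SE 1.01), Pdpn (0.12, SE 0.18) and Cd34 (0.05, SE 0.23). The summed level of the fibroblast markers, mostly Col3a1, was 10750 and 9196 CPM in responder cells, against 11780 and 18450 CPM in non-responder cells. Of the list, Pdgfra, Cd34 and Dcn were at 293 to 1588 CPM in every library, while 5 (Thy1, Tcf21, Pi16, Clec3b and Dpp4) stayed below 1 CPM in all 4, Tcf21 at 0. Pericyte and smooth muscle markers summed to 108 and 135 CPM in responder cells, against 68.7 and 116 CPM in non-responder cells. Nearly all of that was Cspg4, and 9 of the 12 were below 1 CPM throughout. Endothelial markers summed to 14.9 and 18.3 CPM in responder cells, against 26.3 and 29.8 CPM in non-responder cells, with 8 of 11 below 1 CPM. Of the 3 endothelial markers tested, 1 was lower and 2 were higher in responder cells (median log2 fold change 0.31). The lower one was Pecam1, with 6.35 and 11.6 CPM in responder cells, against 17.8 and 25.5 CPM in non-responder cells. Markers of fat, skin and muscle summed to between 10.1 and 13.4 CPM in all libraries. The part of such cells in the values of the 7 genes was not tested.

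Leukocyte and macrophage markers were lower in responder cells on average for 16 of 16 tested, with a summed level of 16.7 and 157 CPM in responder cells, against 113 and 461 CPM in non-responder cells. Ptprc, which encodes CD45, had 0.64 and 6.91 CPM in responder cells, against 5.94 and 22.6 CPM in non-responder cells. Cd74, a class II chaperone gene, gave 53.1 of the 157 CPM in responder replicate 2 and 164 of the 461 CPM in non-responder replicate 2. Without Cd74 the sums were 14.4 and 104 CPM in responder cells, against 104 and 297 CPM in non-responder cells. Responder replicate 2 and non-responder replicate 1 were then nearly equal. Groups did not overlap in 4 of the 16, with responder cells lower, beside 17.8% of all genes tested. In 12 of the 16, responder replicate 2 had more CPM than non-responder replicate 1. The part of leukocyte RNA in the values of the 7 genes was not tested.

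**Figure D5:**
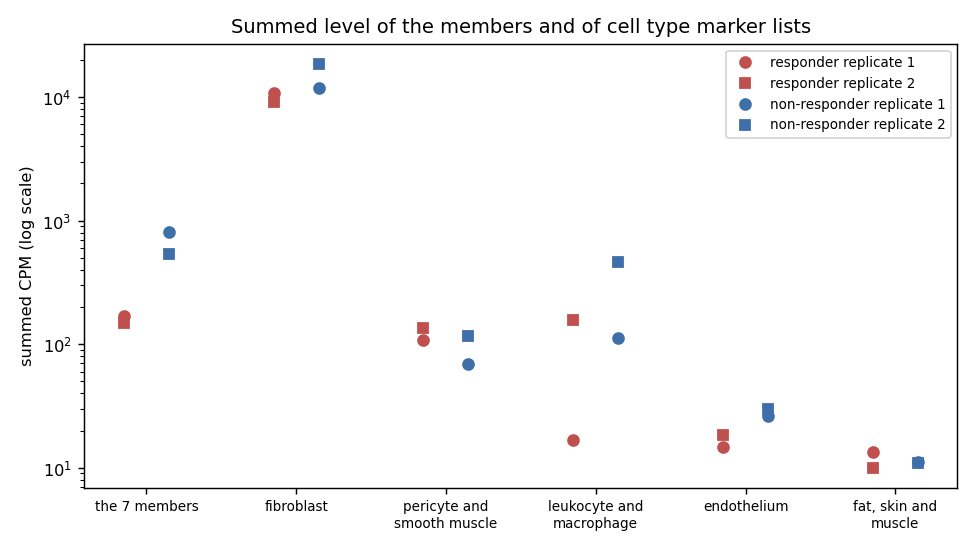
Summed CPM on a log axis of the 7 members and of each cell type marker list in each library (red, responder; blue, non-responder; circles replicate 1, squares replicate 2). The groups do not overlap for the members (149 to 169 CPM against 539 to 807 CPM), for fibroblast markers (9196 to 10750 CPM against 11780 to 18450 CPM) or for endothelial markers (14.9 to 18.3 CPM against 26.3 to 29.8 CPM), and they overlap for the other lists. Of the 3 endothelial markers tested, only Pecam1 was lower in responder cells.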

How the data were processed

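Polyadenylated RNA of sorted MC38-GFP+ tumor cells was sequenced in 2 responder and 2 non-responder libraries, grouped by sample title. The deposited values are raw counts per gene, made with featureCounts 1.6.1, reverse-stranded (setting 2), on Ensembl release 91, per the file headers, with no option for multi-mapping reads; STAR and mm10 are named in the submitters' processing notes. No gene shares a strand and span with any of the 7 members. The authors' exon length per gene (another column of the deposited files) gave CPM per kilobase.

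Symbols matched 53274 of 53379 identifiers. Genes were filtered with filterByExpr (minimum count 10), scaled by TMM (factors 0.952 to 1.035) and fitted with edgeR 4.0.16 in R 4.3.3, group as the only term, over all 13792 genes kept, with Benjamini-Hochberg adjustment at 0.05. The common biological coefficient of variation was 0.216. SE is the log2 fold change over the square root of F. The fit was tried on simulated counts that gave every gene the common biological coefficient of variation, so genes with a wider spread were not covered. Alternatives were other scalings and filters, DESeq2 1.42.0, limma-voom (limma 3.58.1), a replicate term and each library left out. Members and gene lists were chosen with earlier results of these data known. Named genes were the 3 largest differences per list at 5 CPM or more, set relatives and partners, and the 6 most alike genes (a gene that the rule takes is not reported here); Vtn, Tgfb1, Twist1, Itgav, Itgb1, Dcn and the markers cited were named after their values were seen. Promoter sequences are from RefSeq (GRCm38.p6), matched by symbol for 5 of the 7 members.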

Additional observations from a re-analysis of the deposited data

How the results depend on the processing

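The median log2 fold change of the 7 members, -1.76, stayed between -1.80 and -1.74 under the other scalings, filters and tools and with the replicate block, and between -1.82 and -1.64 with 1 library left out; the direction was fixed by the choice of members. Left out singly, libraries moved 4 members by more than their replicate spread, Postn the most. The count of genes past an adjusted p of 0.05, 0 with edgeR, was 62 with DESeq2, 212 with no low-count filter and 41 to 516 with 1 library left out; the fit then has 1 library in a group, assumed to vary like the other. The replicate block gave 32 genes (26 lower, 6 higher). Same-numbered libraries deviated together (r = 0.386 across genes, which are not replicates), but 2 pairs do not show that the numbers pair the samples. Of the other matricellular genes, 10 to 20 were lower with 1 library left out, 20 of 23 without responder replicate 1 and 12 of 21 with all libraries; the cause was not tested. With 2 libraries per group the spread between replicates, not counting error, limits these comparisons.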
